A study of Mus musculus with 6 samples.

Results

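The transcription factors through which canonical Wnt signalling reaches the genome, and the genes that this signal switches on to restrain itself, were followed in RNA sequencing counts of newborn mouse epidermis. The set holds 10 genes, picked by symbol from the 24453 gene symbols in the count files: the 4 Tcf/Lef factors Lef1, Tcf7, Tcf7l1 and Tcf7l2, and 6 feedback targets, Axin2, Nkd1, Nkd2, Sp5, Rnf43 and Znrf3. All 10 symbols were in the files. The samples were epidermal cells from the back skin of mice at postnatal day 0, sorted as interfollicular epidermis by EpCAM, Sca1 and high α6-integrin. 3 libraries carry the genotype label Control and 3 the label Ring1a-/- Ring1b-/-, a double knockout (dKO) of the catalytic ubiquitin ligases of Polycomb repressive complex 1 (PRC1). PRC1 ubiquitinates histone H2A and represses developmental genes. The labels give no strain, no Cre driver and no alleles for the control mice. Whether each library is its own animal is not stated either, and the p-values cover the spread among these 6 libraries, which may be technical. C1, C2 and C3 are the control-labelled and K1, K2 and K3 the knockout-labelled replicates 1 to 3.

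In canonical Wnt signalling, Wnt ligands bind Frizzled and Lrp receptors, Dishevelled relays the signal, and a destruction complex built on Axin, Apc and Gsk3 stops degrading β-catenin. β-catenin then enters the nucleus and binds Tcf/Lef proteins, which sit on DNA through an HMG box and otherwise recruit Groucho/Tle corepressors. Lef1 and Tcf7 are best known as activators with β-catenin, Tcf7l1 mainly as a repressor, and Tcf7l2 acts either way. The feedback targets dampen the signal: Axin2 rebuilds the destruction complex, Nkd1 and Nkd2 bind Dishevelled, Rnf43 and Znrf3 are ubiquitin ligases that remove Frizzled from the cell surface, and Sp5 is a zinc finger factor that lowers Wnt target transcription. In skin the pathway is known for the induction of hair follicles and the upkeep of epidermal progenitors.

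The 250 bases before the annotated start are printed for 4 genes, Lef1 as the factor that was lower, Nkd2 as a feedback gene that was higher, Axin2 as one that was not called, and Sp5 as the one whose window holds the Tcf/Lef heptamer CTTTGAT. They are read 5′ to 3′ on the gene's strand from RefSeq on GRCm38.p6, in lower case, with matches on either strand in capitals to the heptamers CTTTGAT and CTTTGAA, or to their variants CTTTGTT and also CTTTGTA. Sp5 is at chr2:70474673-70474922 (plus strand), Lef1 at chr3:131110047-131110296 (plus), Axin2 at chr11:108920099-108920348 (plus) and Nkd2 at chr13:73847632-73847881 (minus).
Sp5: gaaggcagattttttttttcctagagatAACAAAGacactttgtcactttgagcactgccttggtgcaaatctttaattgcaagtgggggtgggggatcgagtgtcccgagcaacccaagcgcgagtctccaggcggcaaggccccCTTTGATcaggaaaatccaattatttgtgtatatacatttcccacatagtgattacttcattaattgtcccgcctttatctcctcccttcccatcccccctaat
Lef1: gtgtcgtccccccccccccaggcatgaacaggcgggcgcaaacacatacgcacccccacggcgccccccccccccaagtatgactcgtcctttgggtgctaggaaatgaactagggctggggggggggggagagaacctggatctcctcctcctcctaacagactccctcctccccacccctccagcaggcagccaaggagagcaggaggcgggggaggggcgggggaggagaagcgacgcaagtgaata
Axin2: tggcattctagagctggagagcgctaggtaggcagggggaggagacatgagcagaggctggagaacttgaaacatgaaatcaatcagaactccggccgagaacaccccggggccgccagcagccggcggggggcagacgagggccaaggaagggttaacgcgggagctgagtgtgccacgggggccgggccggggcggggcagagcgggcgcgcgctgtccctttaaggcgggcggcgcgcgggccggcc
Nkd2: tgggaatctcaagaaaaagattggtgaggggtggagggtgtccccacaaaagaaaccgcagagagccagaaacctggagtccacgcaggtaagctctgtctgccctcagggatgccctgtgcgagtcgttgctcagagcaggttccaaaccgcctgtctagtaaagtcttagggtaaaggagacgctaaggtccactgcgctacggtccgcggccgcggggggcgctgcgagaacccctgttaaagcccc

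RefSeq windows of 300 bases (250 before to 50 after a start) were found for 9 of the 10 genes, 15 windows in all, since Lef1 has 4 annotated starts and Tcf7, Tcf7l2 and Rnf43 have 2 each. At least 1 of the 4 heptamers was in 3 of the 15 windows, or 20%, against 16.9% of all 32851 windows in the table. The Sp5 window holds CTTTGAT with its first base 104 bases before the start, a heptamer found in 3.73% of all windows, and CTTTGTT on the opposite strand. The others were CTTTGTA at the most downstream of the Lef1 starts (chr3:131156044-131156293 before it) and CTTTGTT at the downstream Tcf7l2 start. None of the 4 heptamers was in the windows of Axin2, Nkd1, Nkd2, Rnf43, Tcf7 or Tcf7l1. The only Nkd1 window precedes an inner start (chr8:88527633), while the gene begins at 88521354, so it does not describe the first start of Nkd1. The upstream Rnf43 window and the Tcf7l1 window also overlap annotated exons of their own genes. The heptamers share their first 5 letters and can occur by chance, so a match here describes letters only. Reads are counted per gene, so transcripts from different starts of Lef1, Tcf7, Tcf7l2 or Rnf43 are summed in every value that follows. PRC1 is known to bind stretches rich in CpG. The observed to expected CpG ratio had a median of 0.384 over all windows. It was highest at the upstream starts of Tcf7 (1.03) and Tcf7l2 (1.01), followed by Axin2 (0.886), Nkd2 (0.882) and Tcf7l1 (0.799). The upstream Rnf43 start had 0.634, the most upstream Lef1 start 0.530, Sp5 0.403 and the inner Nkd1 start 0.247. At the starts named here, the called genes ran from 0.247 to 1.03, or from 0.530 without the inner Nkd1 start. The tested uncalled genes with a window ran from 0.634 to 1.01. Whether the ratio goes with a call was not tested.

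The libraries held 18951665 to 31187270 counts. The targeted gene Ring1 measured 30.9, 17.1 and 3.90 CPM (counts scaled to library size) across C1 to C3, against 1.66, 5.20 and 14.2 CPM across K1 to K3 (log2 fold change -1.29, edgeR adjusted p = 0.389), and in the replicate 3 libraries its order went against the labels, which bears on every direction given here. Rnf2 (Ring1b) did not differ by the test (edgeR adjusted p = 0.575), and its counts check no label, because no source used here gives the deleted part. The first principal component, with 56.7% of the variance, set the groups apart as labelled, with C3 at -71 and K3 at 57.8. C1 and C2 were at -84.6 and -64, and K1 and K2 at 93.5 and 68.4. Why the order of Ring1 differed from this was not tested. The second principal component, with 18.5% of the variance, set C1 and K1 apart from the other 4 libraries. The called genes of the set were therefore also fitted with replicates 1 and 2 alone and with replicates 2 and 3 alone. The keratins Krt5 and Krt14, markers of basal epidermis, measured 15665 to 28244 and 3771 to 8172 CPM over the 6 libraries, and the summed level of 8 epidermal markers was 27058 to 42813 CPM in control-labelled and 26649 to 29822 CPM in knockout-labelled libraries. Of these 8, edgeR called Trp63, the p63 factor of basal epidermis, as lower, at 1729 to 1790.1 CPM in control-labelled and 939 to 1140 CPM in knockout-labelled libraries (log2 fold change -0.79, edgeR adjusted p = 0.0176). Most of the sum was Krt5. Epcam, the gene of the sort marker EpCAM, measured 116 to 168 CPM in control-labelled and 207 to 381 CPM in knockout-labelled libraries. These ranges did not overlap (log2 fold change 0.95, edgeR adjusted p = 0.0598). Ly6a, the gene of Sca1, measured 15.1, 48.8 and 52.1 CPM across C1 to C3 and 49.1, 63.5 and 56.6 CPM across K1 to K3. Itga6, the gene of α6-integrin, overlapped between groups.

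Within this set the direction of change differed from gene to gene. Lef1 fell about 2-fold, Tcf7 rose about 3-fold, and Nkd1 and Nkd2 rose about 7-fold from low levels, while Axin2, Rnf43, Znrf3, Tcf7l1 and Tcf7l2 did not pass the test. Sp5, the tenth gene, had too few counts to be tested. Of the 9 tested, 3 were higher and 1 lower at an edgeR adjusted p under 0.05, where 7.17% of all 14890 tested genes were higher and 2.98% lower (10.2% either way). The CPM of both groups did not overlap for 4 of the 9 in the higher direction and for 1 in the lower, against 17.6% and 14.8% of all tested genes (32.4% either way). A fitted change of 2-fold or more was seen for 4 of the 9, against 21.4% of all tested genes. The 9 had a median log2 fold change of 0.25, against 0.00 for all tested genes. With an offset for GC and transcript length these medians were -0.19 and -0.13. Calls over all genes were then split into 903 higher and 930 lower. The count filter did not favour these calls, since each of the 9 genes reached the 0.358 CPM it asks for in all 3 libraries of both groups. In bulk RNA, fewer cells that express a gene and less RNA per cell cannot be told apart.

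**Figure D1:**
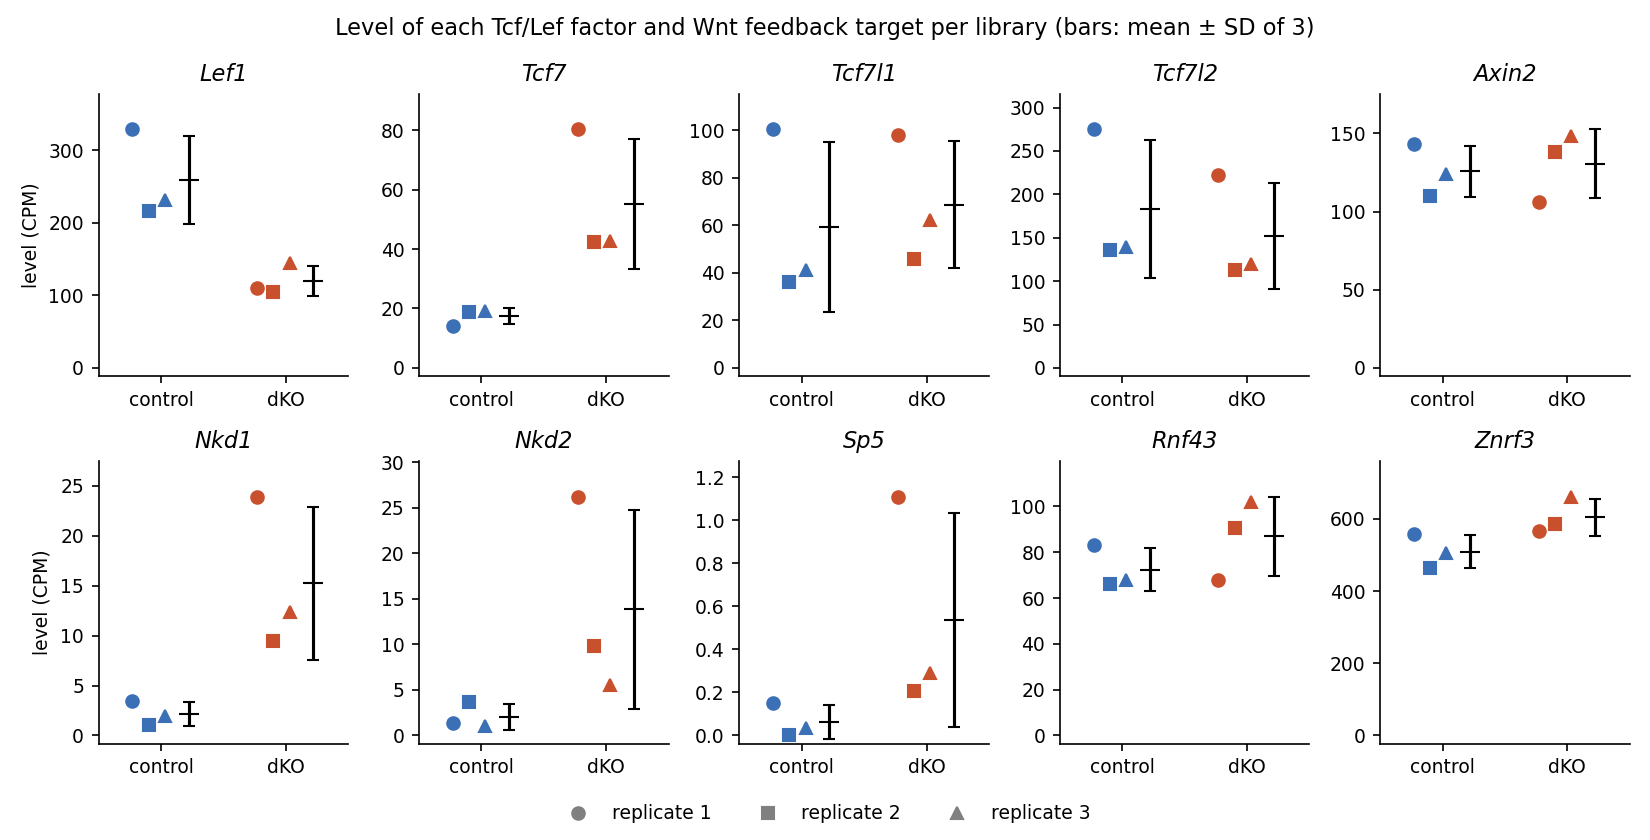
Level of the 10 genes in each library, in CPM on a linear axis from 0 for each gene, with control-labelled libraries in blue and knockout-labelled (dKO) ones in orange, a symbol per replicate number, and the mean ± SD of 3 libraries in black. Lef1 is lower in all 3 knockout-labelled libraries (105 to 144 CPM against 217 to 329), Tcf7, Nkd1 and Nkd2 are higher in all 3, and the Axin2 groups overlap.

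Among the DNA-binding factors, Lef1 (chr3:131110471-131224356, plus strand, GRCm38) measured 329, 217 and 231 CPM across C1 to C3, against 110.1, 105 and 144 CPM across K1 to K3. Every knockout-labelled library lay below every control-labelled one, and K3, in which Ring1 was not low, was the highest of its group. The log2 fold change was -1.12 ± 0.22 (SE, n = 3 libraries per group; edgeR adjusted p = 0.0145), a level 2.17-fold lower. The call was lost without K2 (-1.03, edgeR adjusted p = 0.0698) and with replicates 1 and 2 alone (-1.35, edgeR adjusted p = 0.0719), and held with replicates 2 and 3 alone (-0.85, edgeR adjusted p = 0.00874). On the opposite strand Gm43352 shares 1208 exonic bases with Lef1 and part of the Lef1 window printed above, and no source here states whether counting used strand. The same limit holds for Tcf7l1, which shares 179 exonic bases with Gm15401, and for Axin2, which shares 209 with Gm11670, both on the opposite strand.

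Tcf7 (chr11:52252371-52283014, minus strand), the factor also called TCF1, went the other way. It measured 14.2, 18.8 and 19.1 CPM across C1 to C3, against 80.3, 42.4 and 42.6 CPM across K1 to K3. The groups did not overlap, with K1 the highest library. The log2 fold change was 1.67 ± 0.30 (SE, n = 3 libraries per group; edgeR adjusted p = 0.0104), or 3.17-fold. The call held without any 1 library (edgeR adjusted p = 0.0114 to 0.0386) and was lost with replicates 1 and 2 alone (1.88, edgeR adjusted p = 0.0556). With replicates 2 and 3 alone it held at a smaller size (1.16, edgeR adjusted p = 0.00258).

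Neither Tcf7l1 nor Tcf7l2 passed the test, and for both the replicate 1 libraries were the highest of their group. Tcf7l1 (chr6:72626378-72789254, minus strand) is a transcriptional repressor known from epidermal and hair follicle progenitors. It measured 100.3, 36.1 and 41.3 CPM across C1 to C3, against 98.0, 45.9 and 62.0 CPM across K1 to K3. C1 and K1 were nearly equal, and the groups overlapped. The log2 fold change was 0.21 with a 95% interval of -0.75 to 1.17 (edgeR adjusted p = 0.816). Tcf7l2 (chr19:55741820-55933654, plus strand), the main Tcf factor of gut epithelium, measured 275, 136 and 139 CPM across C1 to C3, against 222, 113 and 120.1 CPM across K1 to K3. Again C1 and K1 were high and the groups overlapped, with a log2 fold change of -0.27 (95% interval -1.07 to 0.53; edgeR adjusted p = 0.700). As folds the intervals run from 0.596 to 2.25 for Tcf7l1 and from 0.476 to 1.44 for Tcf7l2, so a 2-fold rise of Tcf7l1 or a 2-fold fall of Tcf7l2 could not be told from no change.

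The opposite changes of Lef1 and Tcf7 altered the make-up of the Tcf/Lef transcripts, counted as CPM per kilobase of exon so that genes of different length can be compared. Lef1 was the most abundant of the 4 factors in C1, C2 and C3, with 37.5, 43.6 and 43.9% of their summed level, and Tcf7 the least, with 5.41, 12.7 and 12.2%. In K1, K2 and K3 Lef1 held 13.4, 22.7 and 26.3% and Tcf7 held 32.8, 30.7 and 26.1%. The Lef1 to Tcf7 ratio was 6.93, 3.44 and 3.62 in the control-labelled and 0.409, 0.740 and 1.01 in the knockout-labelled libraries, so only in K3 did Lef1 still match Tcf7. The summed level overlapped between groups, at 56.6 to 99.8 CPM per kilobase in control-labelled and 52.7 to 93.5 in knockout-labelled libraries. These shares are a description of the values above and were not tested separately. They depend on the exonic lengths, 8788 bases for Lef1 and 2625 for Tcf7 in GENCODE M21, which pool all annotated isoforms.

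**Figure D2:**
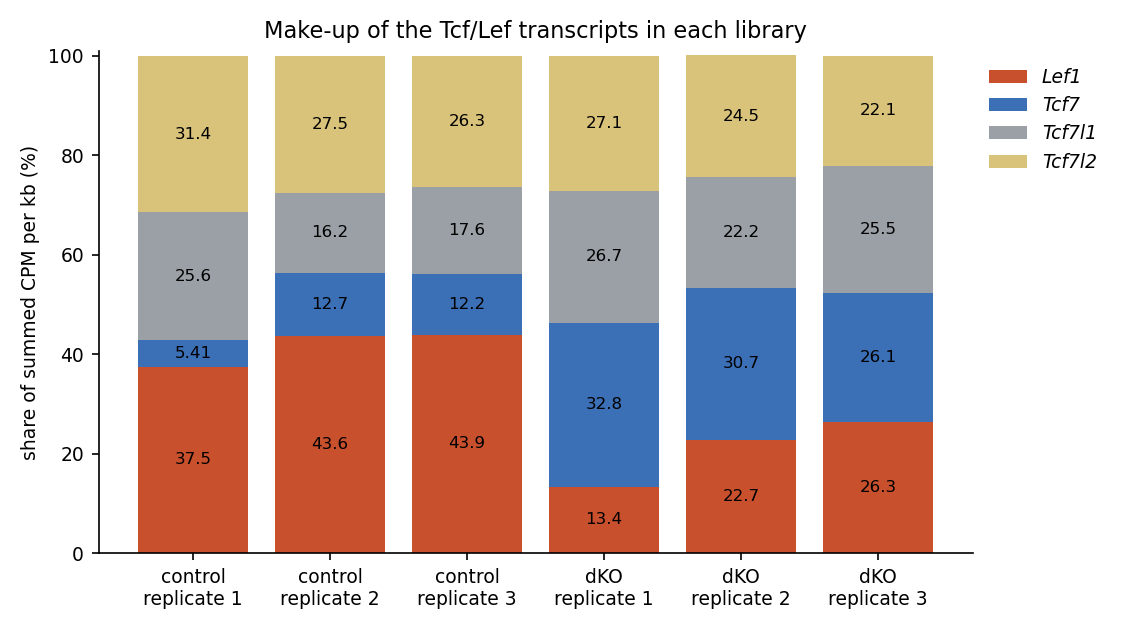
Share of each Tcf/Lef factor in the summed CPM per kilobase of the 4 factors, in percent, with 1 stacked bar per library. Lef1 takes 37.5 to 43.9% in the control-labelled libraries and 13.4 to 26.3% in the knockout-labelled (dKO) ones, and Tcf7 5.41 to 12.7% and 26.1 to 32.8%.

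Among the feedback targets, the Naked cuticle genes Nkd1 and Nkd2, whose proteins bind Dishevelled, were low in the control-labelled libraries and higher in the knockout-labelled ones. Nkd1 (chr8:88521354-88594884, plus strand) measured 3.49, 1.09 and 1.92 CPM across C1 to C3, against 23.9, 9.42 and 12.4 CPM across K1 to K3, from 174 and 1253 counts in all. The lowest knockout-labelled library lay above the highest control-labelled one. Its log2 fold change was 2.81 ± 0.53 (SE, n = 3 libraries per group; edgeR adjusted p = 0.0128), 7-fold with a 95% interval of 3.03 to 16.2. The call was lost without C3 (2.72, edgeR adjusted p = 0.0546) and with replicates 1 and 2 alone (2.84, edgeR adjusted p = 0.0929), with almost the same size, and held with replicates 2 and 3 alone (2.85, edgeR adjusted p = 0.00379).

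Nkd2 (chr13:73818534-73847631, minus strand) measured 1.39, 3.63 and 1.03 CPM across C1 to C3, against 26.2, 9.78 and 5.56 CPM across K1 to K3. The groups did not overlap, but K1 was far above K2 and K3. The log2 fold change was 2.79 ± 0.69 (SE, n = 3 libraries per group; edgeR adjusted p = 0.0374), 6.91-fold with a 95% interval of 2.32 to 20.6. Of the 4 calls this one was lost in the most alternatives (8 of 18). Without K1 the log2 fold change was 1.93 (edgeR adjusted p = 0.0997). The call was also lost without C1, C3 or K2 (2.46 to 2.99, edgeR adjusted p = 0.0684 to 0.120). Replicates 1 and 2 alone (2.84, edgeR adjusted p = 0.0832) or 2 and 3 alone (1.73, edgeR adjusted p = 0.0992) lost it too. So did limma-voom (2.75, adjusted p = 0.0755) and an offset for GC and transcript length (2.52, edgeR adjusted p = 0.0518). Nkd2 was higher in each of these alternatives. Without C2, the highest control-labelled library, the log2 fold change was 3.52 (edgeR adjusted p = 0.0294).

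Sp5 (chr2:70474923-70477729, plus strand), the zinc finger gene whose upstream window carries CTTTGAT, had 4, 0 and 1 counts in C1, C2 and C3 and 32, 4 and 9 counts in K1, K2 and K3. K1 held most of them, and 1 library reached the level that the filter asks of 3. A count of 0 allows up to 3 counts, which is 0.131 CPM in C2. The ratio of summed counts over library sizes was 8.96 with a 95% exact interval of 3.57 to 28.9, which covers counting error only and not the spread between libraries. Fitted without a count filter, Sp5 did not pass (log2 fold change 3.01 ± 1.49, SE; edgeR adjusted p = 0.283).

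Axin2, the most used readout of canonical Wnt activity, did not pass the test, and its sign turned with the GC and length offset (-0.31). Axin2 (chr11:108920349-108950783, plus strand) measured 143, 110.1 and 124 CPM across C1 to C3, against 106, 138 and 148 CPM across K1 to K3. K1 was the lowest library of all 6 and K3 the highest, so the labels did not order them. The log2 fold change was 0.06 ± 0.19 (SE; edgeR adjusted p = 0.901), and its 95% interval, 0.767 to 1.41 as a fold, leaves out a 2-fold change in either direction in this fit.

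The ligases that remove Frizzled receptors were not called either. Rnf43 (chr11:87662722-87735539, plus strand) measured 83.1, 66.3 and 67.9 CPM across C1 to C3, against 68.0, 90.7 and 102 CPM across K1 to K3, with overlapping groups (log2 fold change 0.26 ± 0.21, SE; edgeR adjusted p = 0.486). With replicates 2 and 3 alone it passed (0.52, edgeR adjusted p = 0.0290). Znrf3 (chr11:5276324-5444847, minus strand), the most abundant of the 10 genes per kilobase in both groups, measured 557, 464 and 506 CPM across C1 to C3, against 565, 585 and 661 CPM across K1 to K3. Its groups did not overlap, by a gap of 557 to 565 CPM, but the difference did not pass (log2 fold change 0.25 ± 0.16, SE; edgeR adjusted p = 0.400). The 95% intervals were 0.867 to 1.66 as a fold for Rnf43 and 0.919 to 1.53 for Znrf3, and with the GC and length offset both were negative on the log2 scale (-0.19 and -0.04).

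**Figure D3:**
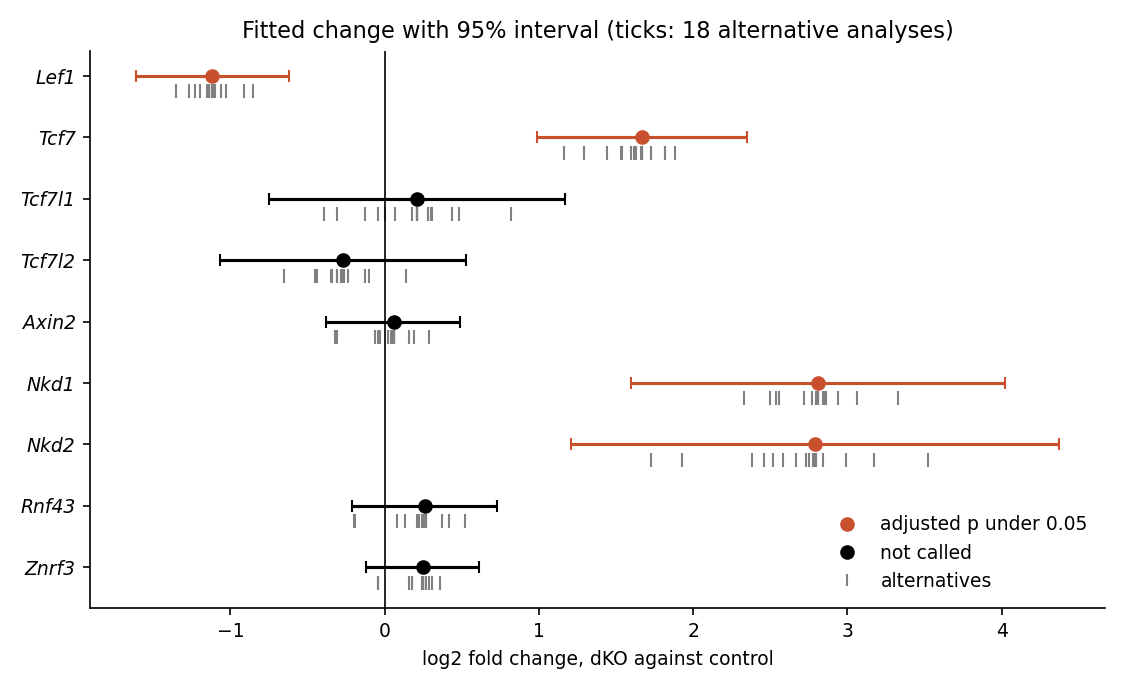
Log2 fold change, knockout-labelled against control-labelled, of the 9 tested genes with the 95% interval of the edgeR fit, in orange where the adjusted p is under 0.05 and in black otherwise. Grey ticks give the same value under each of the 18 alternative analyses: those of Lef1, Tcf7, Nkd1 and Nkd2 stay on one side of 0, and those of Tcf7l1, Tcf7l2, Axin2, Rnf43 and Znrf3 lie on both.

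Per kilobase of exon, the order of the genes in the control-labelled libraries was Znrf3 (64.5 ± 5.94 CPM per kilobase, mean ± SD, n = 3), Lef1 (29.5 ± 6.94), Axin2 (22.8 ± 3.04), Tcf7l2, Tcf7l1, Rnf43, Tcf7 (6.62 ± 1.06), Nkd1, Nkd2 and Sp5. In the knockout-labelled libraries it was Znrf3 (76.5 ± 6.42), Axin2 (23.7 ± 4.02), Tcf7 (21.0 ± 8.32), Tcf7l1, Tcf7l2, Lef1 (13.6 ± 2.37), Rnf43, Nkd1, Nkd2 and Sp5. Znrf3 stood clear of the next gene in both groups. The library ranges of neighbours overlapped from Lef1 down to Rnf43 in the control-labelled and from Axin2 down to Rnf43 in the knockout-labelled libraries, so the order within those stretches is not resolved. Nkd1 and Nkd2 overlapped each other in both groups, and Sp5 lay below both.

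Over the 6 libraries, the genes whose log2(CPM + 0.5) was most like that of Axin2, among 10481 with a mean of at least 5 CPM, were Gpr137b-ps, Abhd12b, Nt5m, Prr13 and Mxra8 (Pearson r = 0.979 to 0.984). Those most like Lef1 were Lnpep, Sgk3, Psap, Prune and Utrn (r = 0.990 to 0.997). No other Wnt gene of the lists used here was among these 10. With 6 points that share 2 groups, many genes reach such values, and they are given as a description only.

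Outside these 10 genes, 104 further Wnt pathway genes were read in 6 lists. Of the 90 tested, 14 rose and 6 fell, or 22.2% called against 10.2% of all tested genes, with a median log2 fold change of 0.05. The lists were chosen with earlier results known, and their counts were not tested against other genes. Of 15 tested Wnt ligands 2 rose and 3 fell (33.3% called, against 10.2% of all tested genes), with a list median of -0.25. Wnt5a, the best known ligand of noncanonical signalling, rose from 1.09, 0.743 and 0.684 CPM across C1 to C3 up to 11.7, 13.9 and 19.3 CPM across K1 to K3 (log2 fold change 4.15, edgeR adjusted p = 8.35e-04). Wnt3a, a canonical ligand, fell from 13.8, 11.6 and 10.7 to 2.25, 3.40 and 2.89 CPM (-2.08, edgeR adjusted p = 0.00617), Wnt4 by 1.26 and Wnt16 by 1.09 on the log2 scale. Wnt11, named after its value was seen, also rose (3.12, edgeR adjusted p = 0.0195). With replicates 1 and 2 alone, edgeR no longer called Wnt3a (adjusted p = 0.0802), Wnt4 (0.0625) or Wnt16 (0.199). The canonical epidermal ligands Wnt3, Wnt7b, Wnt10a and Wnt10b did not pass (log2 fold changes -0.43 to -0.05, edgeR adjusted p = 0.370 to 0.946), and were chosen after their values were seen.

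Of 7 tested secreted antagonists 3 rose and 1 fell (57.1% called, against 10.2% of all tested genes). Sfrp2, which binds Wnt proteins, rose from 2.36, 2.10 and 2.19 CPM across C1 to C3 up to 34.0, 30.9 and 37.5 CPM across K1 to K3, tight in both groups (log2 fold change 3.94 ± 0.24, SE; edgeR adjusted p = 3.03e-04). Its relative Sfrp1 rose by a log2 fold change of 1.70 and Dkk3, a Dickkopf family member, by 1.29, a call lost with replicates 1 and 2 alone (edgeR adjusted p = 0.0952). Sostdc1, an inhibitor of Lrp coreceptors and of BMPs that marks hair follicles, fell from 195, 75.5 and 152 to 25.9, 12.9 and 6.30 CPM (-3.23, edgeR adjusted p = 0.00751). Without K1, the highest knockout-labelled library, its log2 fold change was -3.88 (edgeR adjusted p = 0.00585).

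Of 19 tested receptors and coreceptors 3 rose and 1 fell (21.1% called, against 10.2% of all tested genes). DESeq2 and limma-voom each called 5, adding Lgr6, which was named after its value was seen (1.06, edgeR adjusted p = 0.051). Ror2, a receptor of Wnt5a, rose from 0.150, 2.32 and 0.171 CPM across C1 to C3 up to 13.9, 13.9 and 11.7 CPM across K1 to K3. C2 alone had more than 1 CPM among the control-labelled libraries, and the call (log2 fold change 3.93 ± 0.94, SE; edgeR adjusted p = 0.0324) was lost without any 1 of C1, C3, K1, K2 and K3 (edgeR adjusted p = 0.0629 to 0.0849). Without C2 the log2 fold change was 6.31 (edgeR adjusted p = 0.00158), so its size rests on that library. The Frizzled receptors Fzd1 and Fzd3 rose by log2 fold changes of 1.13 and 0.75, and Kremen2, a partner of Dickkopf proteins, fell by 1.51. Calls of these 3 were also lost without single libraries: Fzd1 without C3, K2 or K3 (edgeR adjusted p = 0.0569 to 0.0788), Fzd3 without any 1 library except K1 (0.0773 to 0.126) and Kremen2 without C1, C3, K1 or K2 (0.0593 to 0.107). With the GC and length offset Fzd1, Fzd3 and Ror2 also missed the threshold (edgeR adjusted p = 0.0735, 0.0720 and 0.0504), and with replicates 1 and 2 alone so did they (0.212, 0.246 and 0.136). Wnt16 lost its call without C2, C3 or K3 (edgeR adjusted p = 0.0512 to 0.0706).

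In the cytoplasm and nucleus, edgeR called 0 of 16 genes for Dishevelled, β-catenin and the destruction complex and 0 of 17 nuclear partners of Tcf/Lef factors, while 4 and 2 had an unadjusted p under 0.05. With 10.2% of all tested genes called, lists of this length would hold few calls, and whether 0 differs from that share was not tested. DESeq2 called 2 of the first list (Ctnnb1 and the casein kinase Csnk1e) and 2 of the other (the corepressors Tle2 and Tle4), and limma-voom called 1 (Csnk1e) and 0. Csnk1e, Tle2 and Tle4 were named after their values were seen. Ctnnb1, which encodes β-catenin, measured 1124, 1381 and 1441 CPM across C1 to C3, against 1995, 1738 and 1978 CPM across K1 to K3. The groups did not overlap, the log2 fold change was 0.53 ± 0.17 (SE; edgeR adjusted p = 0.0946), and DESeq2 called it (0.54, adjusted p = 0.0315). Bcl9l, a coactivator that binds β-catenin, had 514, 339 and 313 CPM against 236, 306 and 334 CPM (-0.41, edgeR adjusted p = 0.327), and passed as lower with the GC and length offset (-1.19, edgeR adjusted p = 0.0137).

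Of 16 tested genes reported elsewhere as Wnt targets 6 rose and 1 fell (43.8% called, against 10.2% of all tested genes). Trib2, a pseudokinase, measured 3.64, 3.45 and 2.39 CPM across C1 to C3, against 73.5, 42.7 and 26.8 CPM across K1 to K3 (log2 fold change 3.92, edgeR adjusted p = 0.00115). Ephb2, an ephrin receptor, rose from 15.7, 27.8 and 12.3 to 94.6, 88.2 and 81.4 CPM (2.25, edgeR adjusted p = 0.00326), and the angiogenic factor Vegfa by a log2 fold change of 1.76, a call lost without C3 (1.73, edgeR adjusted p = 0.0516). With replicates 1 and 2 alone Vegfa also missed the threshold (1.48, edgeR adjusted p = 0.123). Twist1, a mesenchymal bHLH factor, had 4 counts in the control-labelled and 610 in the knockout-labelled libraries (edgeR adjusted p = 0.00157). Sp8, a relative of Sp5 named after its value was seen, had 0 and 114 counts, a level at least 37.8-fold higher when 3 counts are taken as the group floor. Ccnd1, which encodes cyclin D1, rose (0.73, edgeR adjusted p = 0.0392) and the TNF receptor family member Tnfrsf19 fell (-0.89, edgeR adjusted p = 0.0311), both also named after their values were seen.

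**Figure D4:**
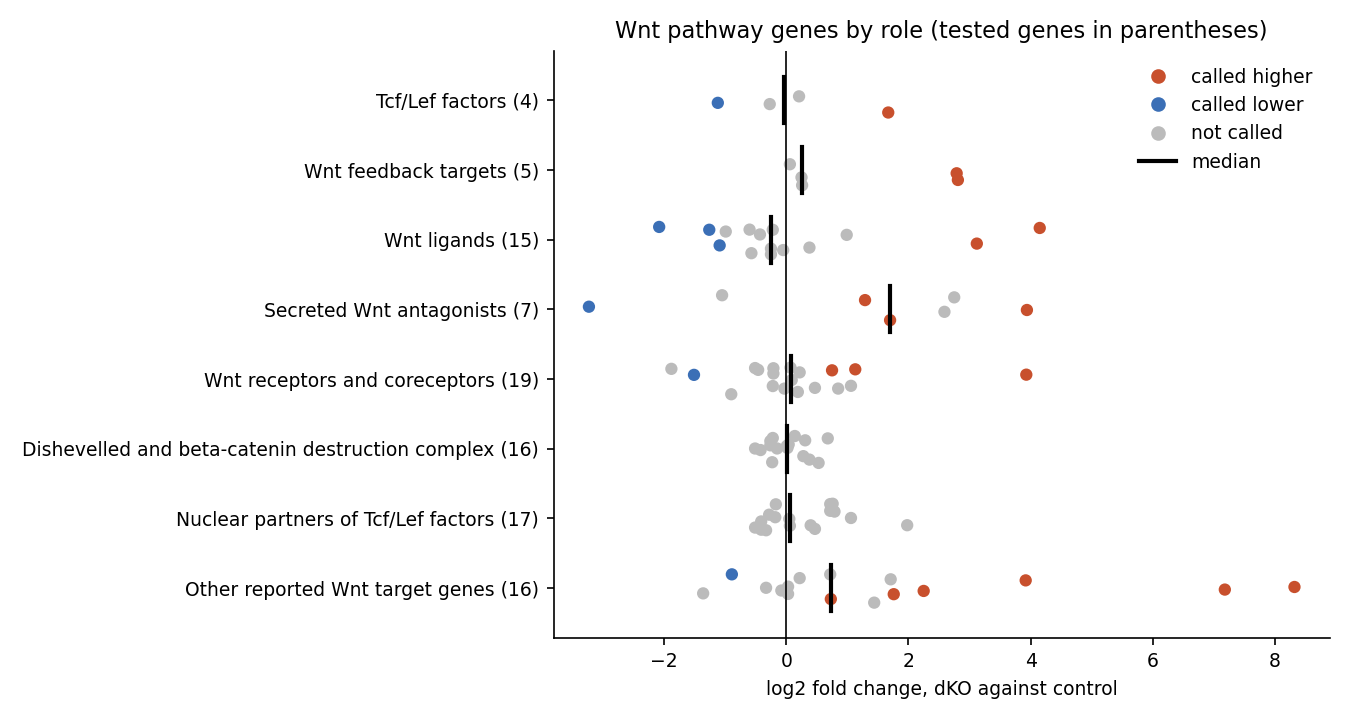
Log2 fold change, knockout-labelled against control-labelled, of each tested Wnt pathway gene by role, in orange where called higher, blue where called lower and grey where not called, with the list median as a black bar. The destruction complex and nuclear partner lists hold no gene called by edgeR, and the 2 points farthest right in the last list are Twist1 and Sp8, whose fitted values rest on 4 and 0 control-labelled counts.

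Markers of other skin cell types that express Tcf/Lef factors were read beside these results. T cells use Tcf7 and Lef1: of the 9 T cell and Langerhans cell markers in the files, Cd3d, Cd3g and Cd7 had no count in any library and Cd3e was under 1 CPM in all 6, while the summed level was 102 to 207 CPM in control-labelled and 116 to 218 in knockout-labelled libraries and Thy1 was called higher. That sum came mainly from Cd74, Thy1 and Ptprc, and the list also covers Langerhans cells, so it does not measure T cells alone. Means of these genes were 95.7, 35.9 and 17.3 CPM in control-labelled and 72.3, 81.6 and 10.9 CPM in knockout-labelled libraries. The 8 dermal fibroblast markers summed to 248 to 799 and 440 to 731 CPM, with none called. The 10 hair follicle markers summed to 797 to 1011 CPM and 1379.6 to 2021 CPM without overlap, with Krt79 called higher and Sostdc1 and Krt25 lower. This sum follows mainly Krt79 and Krt17, with means of 27.3 and 533 CPM in control-labelled and 448 and 858 CPM in knockout-labelled libraries. Mean levels of Lhx2, Sox9, Msx2 and Hoxc13 were also higher and those of Shh, Lgr5, Sostdc1 and Krt25 lower. Shh measured 14.5, 1.88 and 1.98 CPM across C1 to C3, and Lgr5 17.1, 1.49 and 1.23 CPM. For Krt17 and Krt25, C1 was the lowest control-labelled library. The 8 melanocyte markers summed to 14.6 to 19.1 and 19.8 to 34.1 CPM, with none called and Tyr and Mlana under 1 CPM everywhere. The 8 Merkel cell markers summed to 5.55 to 10.5 and 54.7 to 104 CPM, with 4 called higher (Krt18, Sox2, Isl1 and Piezo2) and Atoh1 and Gfi1 under 1 CPM everywhere. The 7 endothelial markers overlapped, at 8.65 to 52.0 and 8.86 to 45.9 CPM. The part of hair follicle, melanocyte or Merkel cell transcripts in the changes of Lef1, Tcf7, Nkd1 and Nkd2 was not tested.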

How the data were processed

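RNA was measured in 3 control-labelled and 3 knockout-labelled libraries, grouped by sample title. The deposited files hold raw counts per gene symbol made by the authors, and the submitters' processing notes list the build mm10 and, without roles, HTSeq 0.6.1, DESeq2 1.6.3, Cufflinks 2.2.1 and TopHat2 2.0.13. The gene annotation and the strand of counting are not given in the sources used here. From these counts, edgeR 4.0.16 (R 4.3.3) with TMM scaling, filterByExpr (minimum count 10, minimum total 15) and no covariates was fitted, by its quasi-likelihood method, to all 14890 genes that passed. The threshold for a call was 0.05 for the two-sided p after Benjamini-Hochberg adjustment over all of them. CPM uses TMM library sizes, SE is the absolute log2 fold change over the root of F, and 0.125 is the prior count in fold changes. Biological variation between libraries was 38.3% as a coefficient. No 2 libraries agreed within sampling noise (chi-square per degree of freedom at least 30.1).

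Alternatives were DESeq2 size factors or library size alone, no count filter or 50 counts in 3 libraries, a replicate block, DESeq2 1.42.0 and limma-voom (limma 3.58.1). Another was an offset fitted to GC and length of the longest annotated transcript (known for 97.8% of tested genes). The rest were removal of the 20 most counted genes, each library left out, and replicates 1 and 2 or 2 and 3 alone. The fit was tested on simulated counts whose changed genes had larger fold changes than Lef1, Tcf7 or any uncalled tested member, so it does not cover changes of their size. The members, lists, markers and alternatives were chosen with earlier results of these data known. All 10 members are named, with up to 4 called genes of each other list by smallest p, or, without a called gene, the most expressed one. Genes named outside this rule are marked in the text as named after their values were seen, apart from marker genes, which come from the marker lists. Positions and exonic lengths are from GENCODE M21 on GRCm38, and upstream sequences from RefSeq on GRCm38.p6. Figures used matplotlib 3.10.9.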

Additional observations from a re-analysis of the deposited data

How the results depend on the processing

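Over 18 alternatives for each of the 9 tested members (162 values), 134 kept direction and side of the threshold, 13 lost a call, 1 gained one and 14 turned sign, the last all in genes that were not called. The count of called members stayed at 4 (3 higher, 1 lower) under either other scaling, either other filter, DESeq2, removal of the most counted genes and the replicate block, and was 2 to 4 when 1 library was left out (2 without C3 or K2). With replicates 1 and 2 alone edgeR called 0 members, while 4 had an unadjusted p under 0.05; with all libraries DESeq2 called 4 and limma-voom 3. The count over all genes was 1512, 811 to 1393 without 1 library (811 without C3, 821 without K2, 995 without K3), 2535 with DESeq2, 439 from replicates 1 and 2 only and 2694 from replicates 2 and 3 only. The GC and length offset took the log2 median over all genes to -0.13 and the share of calls that were higher from 70.6 to 49.3% (1833 calls). With it the members' median was -0.19, and log2 fold changes were -0.39 for Tcf7l1, -0.31 for Axin2, -0.19 for Rnf43 and -0.04 for Znrf3. With the offset and the replicate block together they were -0.31, -0.32, -0.20 and -0.04. Without 1 library, Tcf7l1 ranged from -0.13 to 0.82 (negative without C2 or K1), Tcf7l2 from -0.65 to 0.14 (positive without C1) and Axin2 from -0.04 to 0.19 (negative without C2 or K3), and Axin2 was -0.06 with replicates 1 and 2 alone. The cause of these shifts was not tested. Equal replicate numbers deviated together at r = 0.175, 0.228 and 0.077, so they were not taken as pairs. The replicate block gave 1451 calls over all genes and changed no call among the members, and each library correlated best with its own number, a hint from the data and not the design. Leaving 1 library of a group out keeps 2 against 3, and wide intervals for Tcf7l1 and Tcf7l2 and the low counts of Sp5 limit what these libraries can show.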
